A study of Mus musculus with 6 samples.

Results

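The genes described here are 9 members of the bone morphogenetic protein (BMP) pathway in mouse ovary: the secreted antagonists Grem1 and Nog, the ligands Bmp2, Bmp4, Bmp6 and Bmp7, and the receptors Bmpr1a, Bmpr1b and Bmpr2. They were found in the gene tables by NCBI Gene ID, 9 of 45679 named genes, and all 9 were among the 16473 genes that reached 1 TPM (an abundance scaled for transcript length and library size, comparable between genes) in at least 2 libraries. Messenger RNA was sequenced from ovaries of wild-type mice of the BDF1 hybrid strain. There were 2 libraries in each of 3 groups: mice of 65 weeks injected into the abdomen with MIT-001 (0.5 mg/kg for 7 days), a scavenger of reactive oxygen species directed to mitochondria; mice of 65 weeks injected with PBS for 7 days; and mice of 8 weeks injected with PBS for 7 days. The study used 40 old and 20 young mice. The labels do not say how many animals gave each library, and every p-value rests on the spread among these 6 libraries alone, which may be technical.

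BMPs are secreted dimers that bring together type I receptors, such as BMPR1A and BMPR1B, and type II receptors, such as BMPR2, which are serine/threonine kinases. The active complex phosphorylates SMAD1, SMAD5 and SMAD9, which enter the nucleus with SMAD4 and induce targets such as the Id genes. Gremlin 1 and noggin bind the ligands outside the cell and keep them from their receptors. In the ovary the pathway is known for its part in follicle growth, for restraining luteinization of granulosa cells, and for signalling between the oocyte and the cells around it.

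The age labels went against oocyte and granulosa markers, so groups are named as labelled and each direction holds for the libraries as labelled. Gdf9, an oocyte growth factor, stood at 22.8 and 9.35 TPM in libraries labelled old MIT-001, 116 and 108 TPM in those labelled old PBS, and 73.3 and 9.51 TPM in young PBS libraries. Amh, a hormone of granulosa cells in growing follicles, stood at 50.1 and 80.6 TPM, 123 and 213 TPM, and 95.04 and 40.1 TPM in the same order. Both genes were higher in each library labelled old PBS than in either labelled young PBS, and the 2 young PBS libraries differed widely. Ovarian identity was clear in all 6 libraries, with Foxl2, a granulosa transcription factor, between 104 and 203 TPM. Depth was similar, at 6.34 to 7.14 gigabases of aligned reads per library as implied by the deposited coverage and FPKM. In whole tissue, fewer cells of a type and less RNA per cell cannot be told apart.

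The sequences before the start sites of Grem1, Bmpr1a and Bmpr2 are shown because each holds the letters GGCGCC, the core of a GC-rich element bound by BMP-activated SMADs, and that of Bmp4 is shown as an example that holds none of the motifs searched. RefSeq (GRCm38.p6) gave windows for 6 of the 9 genes, Grem1, Bmp4, Bmp6, Bmpr1a, Bmpr1b and Bmpr2, and not for Nog, Bmp2 and Bmp7. Each is the 250 bases before a start site, 5′ to 3′ on the gene's strand, with GGCGCC in capitals.
Grem1, chr2:113758649-113758898, minus strand: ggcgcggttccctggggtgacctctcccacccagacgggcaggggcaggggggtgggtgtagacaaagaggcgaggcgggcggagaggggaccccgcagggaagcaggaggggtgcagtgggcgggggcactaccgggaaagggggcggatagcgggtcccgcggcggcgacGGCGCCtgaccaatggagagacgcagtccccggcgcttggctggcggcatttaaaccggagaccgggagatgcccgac
Bmpr1a, chr14:34502547-34502796, minus strand: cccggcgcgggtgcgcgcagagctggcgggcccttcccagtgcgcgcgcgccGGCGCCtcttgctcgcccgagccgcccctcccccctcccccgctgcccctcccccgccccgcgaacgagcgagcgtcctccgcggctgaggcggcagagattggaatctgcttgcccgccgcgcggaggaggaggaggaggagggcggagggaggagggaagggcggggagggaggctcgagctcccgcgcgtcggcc
Bmpr2, chr1:59764029-59764278, plus strand: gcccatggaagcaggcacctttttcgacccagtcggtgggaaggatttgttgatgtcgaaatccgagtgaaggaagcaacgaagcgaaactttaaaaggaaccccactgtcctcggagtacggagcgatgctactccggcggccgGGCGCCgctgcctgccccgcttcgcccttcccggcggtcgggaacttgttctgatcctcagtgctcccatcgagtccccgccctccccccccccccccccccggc
Bmp4, chr14:46390670-46390919, minus strand: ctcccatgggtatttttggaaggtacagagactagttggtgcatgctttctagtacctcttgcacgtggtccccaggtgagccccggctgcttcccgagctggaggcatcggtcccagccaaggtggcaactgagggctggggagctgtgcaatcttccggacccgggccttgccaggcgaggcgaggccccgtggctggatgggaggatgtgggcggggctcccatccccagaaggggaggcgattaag
GGCGCC, which reads the same on both strands, began 78 bases before the start of Grem1, 198 before that of Bmpr1a and 105 before that of Bmpr2, and was present in 9.59% of 32851 such windows. AAGGTCA, bound by the NR5A family (4.08% of windows), and GTAAACA, bound by forkhead factors (3.17% of windows), were searched on both strands and were in none of the windows of these 6 genes. GGCGCC was in none of the windows of Bmp4, Bmp6 and Bmpr1b, the last of which has 3 starts. GC made up 72.0%, 78.8% and 64.0% of the windows of Grem1, Bmpr1a and Bmpr2, and 63.2% of that of Bmp4, 68.8% of that of Bmp6 and 46.8% to 56.4% of those of Bmpr1b. The windows of Grem1 and Bmpr1a and all 3 of Bmpr1b lie inside the gene spans of the files, which begin further upstream. For Bmpr1b, on the minus strand, the span begins at 142169585 and the most upstream window at 141982514. A match describes letters and is not evidence of binding.

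No member passed the test in any comparison at an adjusted p of 0.05 (limma, with the Benjamini-Hochberg adjustment across all 16473 genes). Few genes passed at all: 6 of 16473 for old PBS over young PBS (0.0364%; 0.0121% higher and 0.0243% lower), 3 for old MIT-001 over old PBS (0.0182%, all higher) and 0 for old MIT-001 over young PBS (0%), where 2820 genes were higher and 134 lower at an unadjusted p below 0.05. At an unadjusted p below 0.05, 5 members were higher in libraries labelled old PBS than in those labelled young PBS (Grem1, Bmp2, Bmpr1a, Bmpr1b and Bmpr2) and 0 were lower, beside 14.6% of all genes higher and 3.55% lower. In old MIT-001 over old PBS, Bmp4 was higher and Grem1 lower at that level, beside 7.45% and 4.36% of all genes. In old MIT-001 over young PBS, Grem1, Bmpr1a, Bmpr1b and Bmpr2 were higher and 0 members lower, beside 17.1% and 0.813% of all genes. Such shares depend on the scaling: of genes at an unadjusted p below 0.05, those higher made up 80.5% for old PBS over young PBS, 63.0% for old MIT-001 over old PBS and 95.5% for old MIT-001 over young PBS with TPM, but 36.2%, 52.5% and 44.2% after each library was centred on its median. With FPKM they were 62.6%, 61.0% and 83.3%, and after quantile normalization 52.7%, 45.6% and 63.5%.

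The libraries of old PBS lay wholly above those of young PBS for 6 members, the 5 above and Bmp6, and wholly below for 0, beside 38.1% and 11% of all genes. The old MIT-001 libraries lay wholly above those of old PBS for Bmp4 and Bmpr1a and wholly below for Grem1, Bmp2 and Bmpr1b, beside 27.2% and 24.2% of all genes. They lay wholly above those of young PBS for 7 members, all but Nog and Bmp7, and wholly below for 0, beside 37.3% and 6.56% of all genes. The comparisons share libraries, so their values are not independent. The median log2 fold change over all genes was 0.23, 0.03 and 0.24 in these 3 comparisons, and -0.09, -0.06 and -0.17 after median centring. For the members the medians were 0.78, -0.34 and 0.91 on the TPM scale. Apart from Nog and Bmp2 for old MIT-001 over young PBS, no member changed sign with scaling by TPM, FPKM, median centring or quantile normalization.

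**Figure D1:**
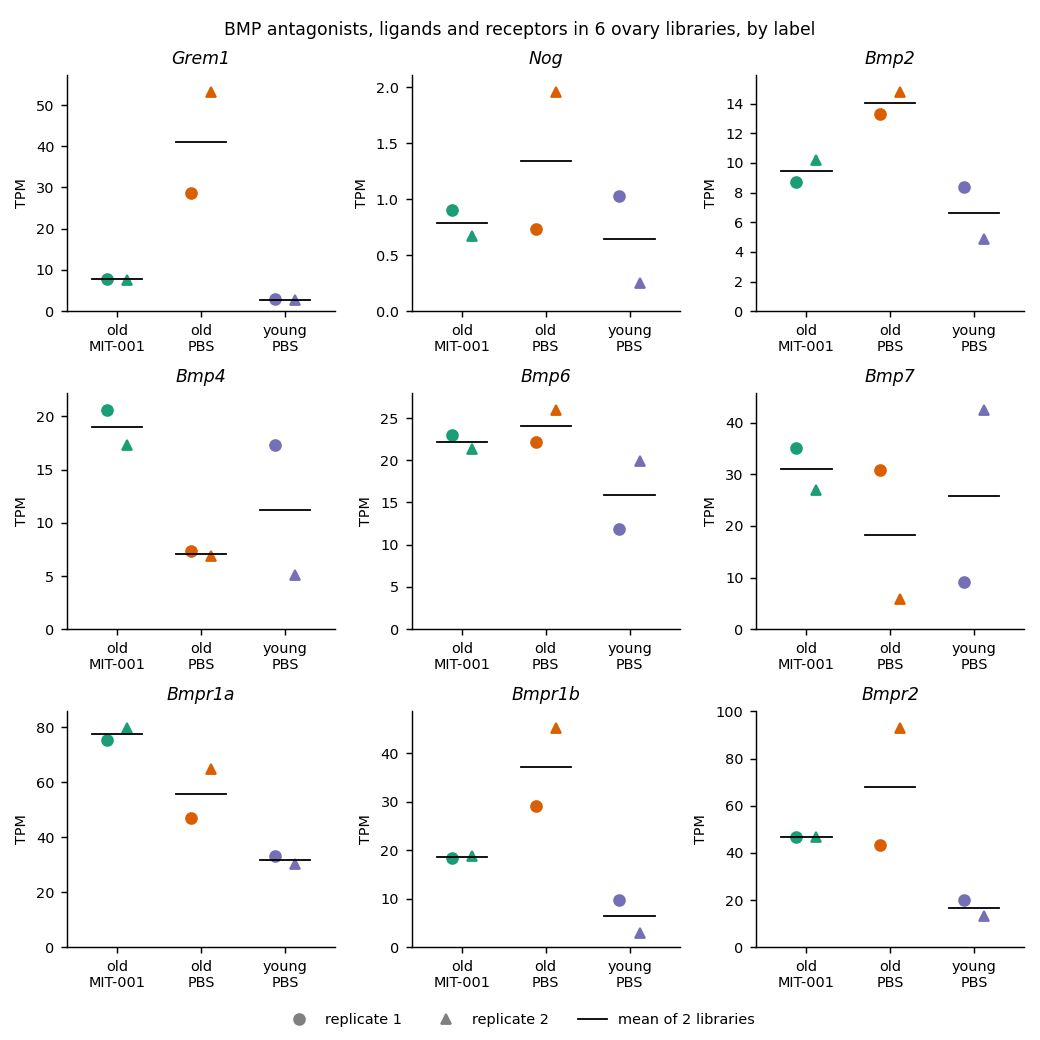
TPM of the 9 genes (vertical axes, each from 0) in the 6 libraries grouped by label (horizontal axes); points are single libraries and bars are means of 2 libraries. Grem1 and Bmpr1b were highest in libraries labelled old PBS, Bmp4 was lowest in 1 library labelled young PBS at 5.08 TPM, and Bmp7 ranged from 5.82 to 42.4 TPM without following the groups.

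Grem1 (gremlin 1), which binds BMP2, BMP4 and BMP7, showed the widest difference of the 9 genes. In mouse ovaries it is made by granulosa cells and is induced by oocyte factors. Grem1 (Gene ID 23892) spans 113748674 to 113759317 of chromosome 2 on the minus strand of mm10. It stood at 7.91 and 7.57 TPM in libraries labelled old MIT-001, 28.8 and 53.1 TPM in those labelled old PBS, and 2.93 and 2.61 TPM in those labelled young PBS. The 3 groups did not overlap, and old PBS stood highest and young PBS lowest. As means this was 7.74 ± 0.24, 41.0 ± 17.2 and 2.77 ± 0.22 TPM (SD, n = 2 each).

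For old PBS over young PBS, Grem1 had a log2 fold change, on the log2(TPM + 1) scale used throughout, of 3.41 ± 0.35 (SE; adjusted p = 0.0686, limma), the 11th smallest p of 16473 genes. It was -2.20 ± 0.35 for old MIT-001 over old PBS (adjusted p = 0.104), and for old MIT-001 over young PBS 1.21 ± 0.35 (adjusted p = 0.165). The first passed without replicate 1 labelled young PBS (3.47, adjusted p = 0.0367). The second passed when only the 4 libraries compared were fitted (adjusted p = 0.0491) and without replicate 1 labelled young PBS (adjusted p = 0.0497), which left the fold change at -2.20. After median centring the adjusted p was 0.0505 for old PBS over young PBS (3.09).

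Nog (noggin), a high-affinity antagonist that sequesters BMP2, BMP4 and BMP7, was near the limit of the filter. It is annotated at 89300638 to 89302559 of chromosome 11 on the minus strand (Gene ID 18121). Its levels were 0.907 and 0.672 TPM in libraries labelled old MIT-001, 0.732 and 1.96 TPM in those labelled old PBS, and 1.03 and 0.256 TPM in those labelled young PBS. All 3 groups overlapped. Its mean read depth was 0.810 to 5.62 across libraries, against 6.77 to 261 for the other members apart from Bmpr1b. The log2 fold changes were 0.50 ± 0.42, -0.34 ± 0.42 and 0.16 ± 0.42 (SE) for old PBS over young PBS, old MIT-001 over old PBS and old MIT-001 over young PBS, with adjusted p from 0.563 to 0.898 (limma); the last turned to -0.25 after median centring.

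Bmp2, a ligand expressed by granulosa cells, stood at 8.70 and 10.2 TPM in libraries labelled old MIT-001, 13.3 and 14.8 TPM in those labelled old PBS, and 8.40 and 4.85 TPM in those labelled young PBS. The groups did not overlap and took the same order as Grem1, but the differences were smaller, and 8.70 TPM in old MIT-001 lay close to 8.40 TPM in young PBS. The log2 fold change was 1.02 ± 0.32 (SE; adjusted p = 0.225, limma) for old PBS over young PBS and -0.53 ± 0.32 (adjusted p = 0.626) for old MIT-001 over old PBS. For old MIT-001 over young PBS it was 0.49 ± 0.32 (adjusted p = 0.498), and -0.024 after quantile normalization. Bmp2 (12156) spans 133552159 to 133562896 of chromosome 2 on the plus strand.

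Bmp4, a ligand that in the rat is made by theca cells, had the opposite order to Grem1 between the 2 groups labelled old. It stood at 20.6 and 17.4 TPM in libraries labelled old MIT-001, 7.34 and 6.84 TPM in those labelled old PBS, and 17.3 and 5.08 TPM in those labelled young PBS. The groups labelled old MIT-001 and old PBS did not overlap, while the young PBS libraries lay on both sides of old PBS. For old MIT-001 over old PBS the log2 fold change was 1.30 ± 0.52 (SE; adjusted p = 0.408, limma), with means of 19.0 ± 2.29 and 7.09 ± 0.36 TPM (SD, n = 2 each). For old PBS over young PBS it was -0.39 ± 0.52, and 0.41 without replicate 1 labelled young PBS, so its direction rested on that library. It was 0.91 ± 0.52 for old MIT-001 over young PBS, and ran from 0.12 to 1.71 with a library left out. The nearest libraries of these groups stood at 17.355 TPM (old MIT-001) and 17.346 TPM (young PBS), so the groups barely avoided overlap. Bmp4 (12159) spans 46383525 to 46390669 of chromosome 14 on the minus strand, and 1452 bases overlap Gm15222 on the other strand, so without a stated strand setting their reads cannot be told apart.

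Bmp6, a ligand expressed by oocytes and granulosa cells in the mouse, varied least of the 4 ligands. It stood at 23.0 and 21.4 TPM in libraries labelled old MIT-001, 22.1 and 25.9 TPM in those labelled old PBS, and 11.9 and 19.9 TPM in those labelled young PBS. Both young PBS libraries were below the other 4, and the 2 groups labelled old overlapped. The log2 fold change was 0.60 ± 0.30 (SE; adjusted p = 0.338, limma) for old PBS over young PBS, 0.50 ± 0.30 (adjusted p = 0.451) for old MIT-001 over young PBS, and -0.11 ± 0.30 for old MIT-001 over old PBS, with a 95% confidence interval of -0.83 to 0.61. Bmp6 (12161) spans 38345716 to 38500314 of chromosome 13 on the plus strand, where 1554 bases overlap 4930579J19Rik and 49 overlap Txndc5, both on the other strand.

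Bmp7, a ligand that in the rat ovary is made by theca cells, differed more within groups than between them. It stood at 35.2 and 26.9 TPM in libraries labelled old MIT-001, 30.7 and 5.82 TPM in those labelled old PBS, and 9.15 and 42.4 TPM in those labelled young PBS. All 3 groups overlapped. The log2 fold changes were 1.11 ± 0.90 for old MIT-001 over old PBS, -0.51 ± 0.90 for old PBS over young PBS and 0.60 ± 0.90 for old MIT-001 over young PBS (SE; adjusted p from 0.767 to 0.815, limma), with 95% confidence intervals that all spanned 0. Bmp7 (12162) spans 172868012 to 172940321 of chromosome 2 on the minus strand, and 16561 bases overlap Gm40010 on the same strand, so reads there could be counted to either gene.

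Ligand makeup differed widely within the groups labelled old PBS and young PBS, and less within old MIT-001. Bmp7 made up 40.2% and 35.5% of the summed TPM of the 4 ligands in libraries labelled old MIT-001, 41.8% and 10.9% in those labelled old PBS, and 19.5% and 58.7% in those labelled young PBS. Bmp4 made up 23.6% and 22.9%, 9.98% and 12.8%, and 37.1% and 7.03% in the same order. The summed level itself spanned less, from 46.8 TPM in replicate 1 labelled young PBS to 87.4 TPM in replicate 1 labelled old MIT-001.

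The 3 receptors were lowest in libraries labelled young PBS. Bmpr1a, the widely expressed type I receptor, stood at 75.5 and 79.7 TPM in libraries labelled old MIT-001, 47.0 and 64.7 TPM in those labelled old PBS, and 33.2 and 30.4 TPM in those labelled young PBS. The groups did not overlap, and here old MIT-001 stood highest. The log2 fold change was 1.26 ± 0.23 (SE; adjusted p = 0.161, limma) for old MIT-001 over young PBS, 0.78 ± 0.23 (adjusted p = 0.224) for old PBS over young PBS and 0.48 ± 0.23 (adjusted p = 0.481) for old MIT-001 over old PBS. Bmpr1a (12166) spans 34411061 to 34503336 of chromosome 14 on the minus strand.

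Bmpr1b, the type I receptor whose loss makes female mice infertile with a failure of cumulus expansion, stood at 18.3 and 18.7 TPM in libraries labelled old MIT-001, 29.1 and 45.1 TPM in those labelled old PBS, and 9.74 and 3.02 TPM in those labelled young PBS. The groups did not overlap and took the order of Grem1. The log2 fold change was 2.50 ± 0.49 (SE; adjusted p = 0.206, limma) for old PBS over young PBS, -0.93 ± 0.49 (adjusted p = 0.554) for old MIT-001 over old PBS and 1.57 ± 0.49 (adjusted p = 0.186) for old MIT-001 over young PBS. The first passed without replicate 1 labelled young PBS (3.21, adjusted p = 0.0367). Bmpr1b (12167) spans 141837135 to 142169585 of chromosome 3 on the minus strand.

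The level of Bmpr1b against other genes is uncertain. Its deposited coverage, the mean read depth over the gene, was 0.448 to 6.12. The ratio of this coverage to FPKM was 4.66% to 4.72% of the most common such ratio in the same library. That most common ratio was shared by 34.7% to 36.4% of genes above 1 FPKM, and the median gene was at 91.6% to 92.7% of it. Only 2.73% to 2.83% of genes above 1 FPKM fell below 10% of the most common ratio. The order of the groups was the same on both scales, while the 2 old MIT-001 libraries, close on both, changed places. For a log2 difference, coverage was divided by the most common ratio of its library and 1 was added. On that scale the difference between old PBS and young PBS was 0.61. Bmpr1b is low there, so the added 1 shrinks the difference, and its size is not comparable with that on the TPM scale.

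Bmpr2, the type II receptor that binds BMPs specifically and is best known from pulmonary arterial hypertension, stood at 46.6 and 46.9 TPM in libraries labelled old MIT-001, 43.4 and 92.9 TPM in those labelled old PBS, and 20.0 and 13.3 TPM in those labelled young PBS. Both groups labelled old were above both young PBS libraries, and they overlapped each other because replicate 1 labelled old PBS lay just under the old MIT-001 libraries. The log2 fold change was 1.90 ± 0.39 (SE; adjusted p = 0.21, limma) for old PBS over young PBS, 1.46 ± 0.39 (adjusted p = 0.161) for old MIT-001 over young PBS and -0.44 ± 0.39 (adjusted p = 0.802) for old MIT-001 over old PBS. The last was 0.11 without replicate 2 labelled old PBS. Bmpr2 (12168) spans 59764279 to 59878081 of chromosome 1 on the plus strand.

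**Figure D2:**
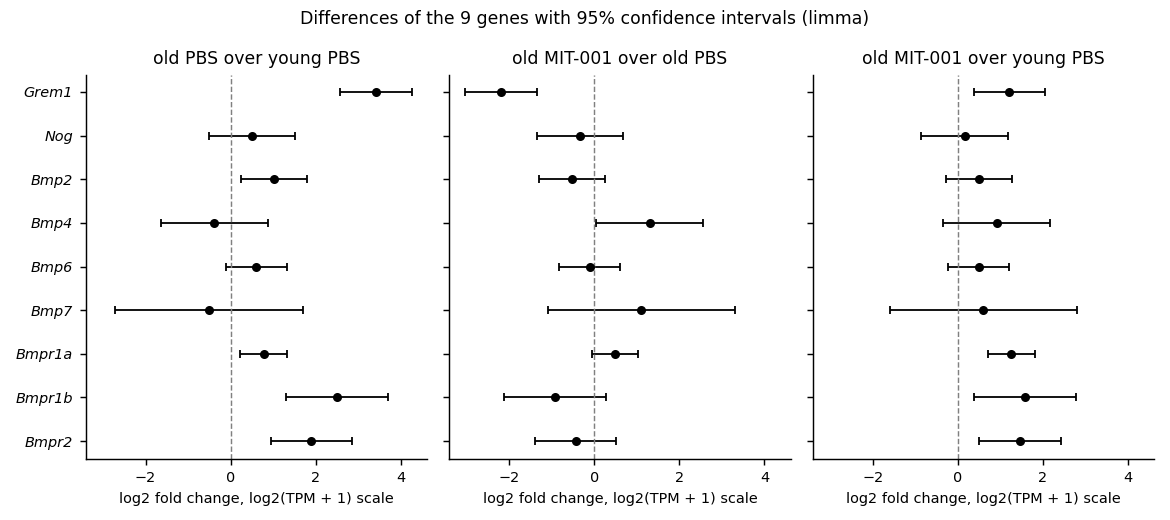
Log2 fold changes on the log2(TPM + 1) scale (horizontal axes) of the 9 genes (vertical axis) in the 3 comparisons; points are limma estimates and bars are 95% confidence intervals for a single gene, unadjusted. Grem1 lay furthest from 0 in old PBS over young PBS (3.41) and in old MIT-001 over old PBS (-2.20), and the Bmp7 interval spanned 0 in each panel.

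The balance of the antagonists Grem1 and Nog and the 4 ligands was compared within each library, where the scaling between libraries cancels. It left out the other antagonists and modulators and is not the balance of the whole pathway. Of those left out, Crim1 (10.6 to 77.2 TPM) was highest and Nbl1 (61.7 to 170 TPM) lowest in old PBS. The ligand sum also holds Bmp6, at 25.4% to 48.6% of it, which is not among the ligands named above as bound by Grem1 and Nog. The summed TPM of Grem1 and Nog was 0.101 and 0.109 times that of the 4 ligands in libraries labelled old MIT-001, 0.401 and 1.03 times in those labelled old PBS, and 0.0846 and 0.0397 times in those labelled young PBS. The groups did not overlap, and old PBS stood above the other 4 libraries. The mean log2 ratio was 3.47 higher in old PBS than in young PBS, had a difference of -2.62 for old MIT-001 over old PBS and was 0.85 higher in old MIT-001 than in young PBS. Each had p = 0.333 by a two-sided exact permutation test, which is the smallest p that 2 libraries against 2 allow. Grem1 made up most of the antagonist sum in each library, least in replicate 1 labelled young PBS, where Nog gave 1.03 of 3.96 TPM. With Grem1 alone the ratio was 0.0904 and 0.0999 in old MIT-001, 0.391 and 0.996 in old PBS, and 0.0625 and 0.0362 in young PBS libraries, and the groups again did not overlap.

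The share of Bmpr1b in the summed TPM of both type I receptors was 19.5% and 19.0% in libraries labelled old MIT-001, 38.3% and 41.1% in those labelled old PBS, and 22.7% and 9.04% in those labelled young PBS. Both old PBS libraries were above the other 4, and young PBS overlapped old MIT-001. The differences were 23.8 percentage points for old PBS over young PBS and -20.4 for old MIT-001 over old PBS (exact permutation p = 0.333 each, two-sided), and 3.41 for old MIT-001 over young PBS (exact permutation p = 1). By coverage the share was 0.542% to 3.71%, in the same order of groups, so its size depends on the scale.

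**Figure D3:**
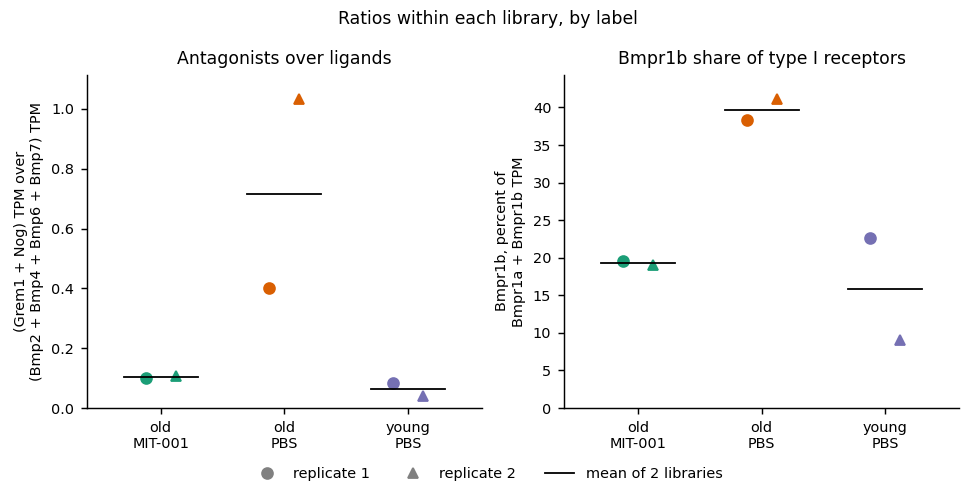
Summed TPM of Grem1 and Nog over that of Bmp2, Bmp4, Bmp6 and Bmp7 (left vertical axis), and Bmpr1b as a percent of Bmpr1a and Bmpr1b TPM (right vertical axis), by label; points are single libraries and bars are means of 2 libraries. The 2 libraries labelled old PBS stood highest in both panels, at ratios of 0.401 and 1.03 and shares of 38.3% and 41.1%.

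Other genes of the pathway were described from 5 lists, which hold 58 genes, 44 of them tested. In no comparison did any of the 44 pass after adjustment (limma). At an unadjusted p below 0.05, 10 of the 44 were higher and 3 lower in old PBS over young PBS, beside 14.6% and 3.55% of all genes. In old MIT-001 over old PBS 7 were higher and 5 lower, beside 7.45% and 4.36% of all genes. In old MIT-001 over young PBS 14 were higher and 0 lower, beside 17.1% and 0.813% of all genes. The median log2 fold changes of the 44 were 0.21, 0.17 and 0.49, beside 0.23, 0.03 and 0.24 for all genes tested.

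Among 13 tested antagonists and modulators of 18 listed, Crim1 and Nbl1 were among those with the smallest p. Crim1, a transmembrane protein that binds BMPs, stood at 24.3 and 35.2 TPM in libraries labelled old MIT-001, 56.2 and 77.2 TPM in those labelled old PBS, and 12.5 and 10.6 TPM in those labelled young PBS (log2 fold change 2.42 ± 0.28 for old PBS over young PBS, adjusted p = 0.0915, limma). The groups did not overlap for Crim1, which took the order of Grem1. Nbl1, a member of the same DAN family as gremlin 1, went the other way, with 153 and 170 TPM in libraries labelled old MIT-001, 82.1 and 61.7 TPM in those labelled old PBS and 150 and 101 TPM in those labelled young PBS (log2 fold change 1.17 ± 0.27 for old MIT-001 over old PBS, adjusted p = 0.2). The list's median log2 fold change was 0.19, 0.17 and 0.38 in old PBS over young PBS, old MIT-001 over old PBS and old MIT-001 over young PBS.

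Of 11 other ligands listed, 4 passed the filter on low values: Bmp3, Bmp15, Gdf6 and Gdf9. Bmp3, a ligand that acts against other BMPs, stood at 4.88 and 11.2 TPM in libraries labelled old MIT-001, 19.8 and 36.8 TPM in those labelled old PBS, and 7.17 and 3.70 TPM in those labelled young PBS. Its log2 fold change was 2.18 ± 0.51 for old PBS over young PBS (adjusted p = 0.212, limma) and -1.73 ± 0.51 for old MIT-001 over old PBS (adjusted p = 0.275). Bmp15, an oocyte ligand, stood at 4.60 and 2.52 TPM in old MIT-001, 26.5 and 25.8 TPM in old PBS, and 14.6 and 1.19 TPM in young PBS libraries, so that old PBS stood highest, as for Gdf9.

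Among 9 tested receptors and co-receptors of 10 listed, Acvr2a, an activin type II receptor that BMPs also use, had the smallest p. It stood at 12.6 and 11.99 TPM in libraries labelled old MIT-001, 5.73 and 13.3 TPM in those labelled old PBS, and 3.46 and 4.0 TPM in those labelled young PBS. Its log2 fold change was 1.49 ± 0.40 for old MIT-001 over young PBS (adjusted p = 0.161, limma). The co-receptors Tgfbr3 (25.5 to 44.9 TPM) and Rgma (6.23 to 13.1 TPM) had smaller differences, from -0.44 to 0.52 on the log2 scale over the 3 comparisons.

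All 11 SMADs and intracellular inhibitors were tested, with medians of 0.41, 0.34 and 0.75 in the 3 comparisons in the order above. Bambi, a pseudoreceptor that is itself induced by BMP signalling, stood at 34.0 and 22.6 TPM in libraries labelled old MIT-001, 8.43 and 8.06 TPM in those labelled old PBS, and 12.3 and 18.6 TPM in those labelled young PBS. Its order was the reverse of that of Grem1 between the 2 groups labelled old, with a log2 fold change of 1.64 ± 0.32 for old MIT-001 over old PBS (adjusted p = 0.144, limma). Smad5, a receptor-activated SMAD, had a log2 fold change of 0.96 ± 0.22 for old MIT-001 over young PBS (adjusted p = 0.161), and Smurf2, a ubiquitin ligase for receptors and SMADs, 0.75 ± 0.21 (adjusted p = 0.162).

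Of 11 BMP target genes 10 were tested, and 9 of these were higher in old MIT-001 than in old PBS by sign alone, with a median log2 fold change of 0.53 beside 0.03 for all genes, of which 8812 of 16473 were higher by sign. By sign, 5 of 10 were higher in old PBS than in young PBS (median 0.10), beside 11213 of all genes, and 9 of 10 in old MIT-001 than in young PBS (median 0.72), beside 11423 of all genes. Id1, a direct SMAD target that blocks basic helix-loop-helix factors, stood at 78.5 and 97.6 TPM in libraries labelled old MIT-001, 46.0 and 60.6 TPM in those labelled old PBS, and 39.4 and 36.0 TPM in those labelled young PBS. The groups did not overlap, with log2 fold changes of 0.72 ± 0.23 for old MIT-001 over old PBS (adjusted p = 0.311, limma) and 1.20 ± 0.23 for old MIT-001 over young PBS (adjusted p = 0.161). Smad6, an inhibitory SMAD and target, stood at 9.78 and 9.995 TPM in old MIT-001, 6.0 and 5.39 TPM in old PBS, and 4.03 and 5.38 TPM in young PBS libraries.

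**Figure D4:**
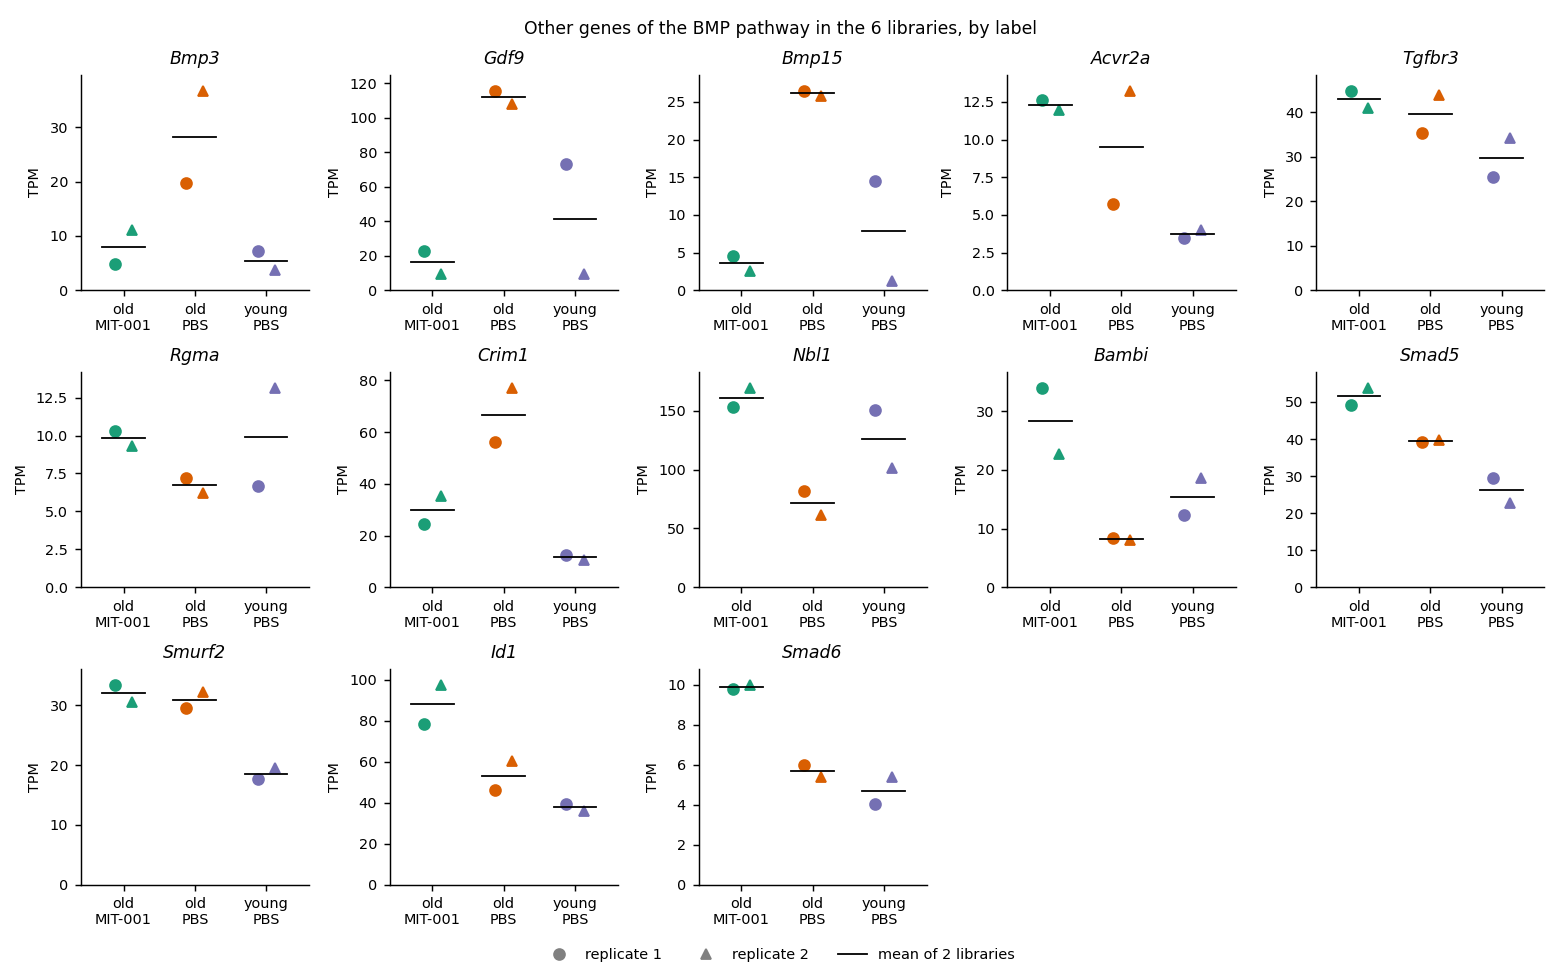
TPM (vertical axes, each from 0) of 13 other pathway genes named by rule, in the 6 libraries by label (horizontal axes); points are single libraries and bars are means of 2 libraries. Bmp3 and Crim1 were highest in libraries labelled old PBS, and Bambi, Id1, Smad5 and Smad6 in those labelled old MIT-001.

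Cell type markers moved with several of these genes, and their part in the differences was not tested. The summed level of 10 granulosa genes was 2590 and 3797 TPM in libraries labelled old MIT-001, 7302 and 9229 TPM in those labelled old PBS, and 3305 and 3040 TPM in those labelled young PBS, so that it was highest where Grem1, Bmp2 and Bmpr1b were highest. Between old MIT-001 and young PBS libraries the granulosa sums overlapped and Grem1 did not. The summed level of 12 oocyte genes was 108 and 55.4 TPM, 614 and 643 TPM, and 394 and 47.7 TPM in the same order. That of 7 theca and interstitial genes was 22856 and 21515 TPM, 33098 and 30917 TPM, and 19734 and 38779 TPM. Between the groups labelled old, this theca sum was higher in old PBS, where Bmp4 was lower. Cyp11a1 and Hsd3b1 made up most of the sum in each library, so it follows those genes. In replicate 2 labelled young PBS, which had the highest sum, Cyp11a1, Star and Hsd3b1 were above both old PBS libraries. Cyp17a1, Insl3, Lhcgr and Ptch1 were below both.

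The summed level of 5 smooth muscle genes was 2059 and 816 TPM in libraries labelled old MIT-001, 850 and 537 TPM in those labelled old PBS, and 1607 and 626 TPM in those labelled young PBS. The library labelled young PBS with the higher sum was also the one with more Bmp4. In contrast, replicate 1 labelled old PBS had a higher sum than replicate 2 labelled old MIT-001 but less Bmp4, 7.34 against 17.4 TPM. The summed level of 6 stromal genes was 1956 and 1762 TPM in old MIT-001, 1161 and 1112 TPM in old PBS, and 1038 and 1436 TPM in young PBS libraries. Of these genes, Pdgfra (110 and 97.1 TPM, 51.1 and 56.6 TPM, and 51.3 and 76.3 TPM in the same order) and Tcf21 were higher in both old MIT-001 libraries than in the other 4, while Dcn, Lum, Col1a1 and Col1a2 overlapped. The summed level of 5 luteal genes was 18622 and 19576 TPM in old MIT-001, 15783 and 10482 TPM in old PBS, and 3586 and 27541 TPM in young PBS libraries. The 2 libraries with the lowest luteal sums had the lowest Bmp7. The luteal genes did not move as one between the groups labelled old. Akr1c18 (means of 10553 and 2380 TPM) and Ptgfr were higher in both old MIT-001 libraries than in old PBS. Lhcgr and Scarb1 were lower, and Sfrp4 overlapped.

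Markers of epithelia and macrophages also differed between the groups in summed level. For 5 oviduct epithelium genes it was 749.8 and 414 TPM in libraries labelled old MIT-001, 32.0 and 36.4 TPM in those labelled old PBS, and 104 and 191 TPM in those labelled young PBS. That of 6 surface epithelium genes was 608 and 647 TPM, 163 and 157 TPM, and 245 and 350 TPM in the same order. Both sums were highest in old MIT-001, as were Bmp4, Bmpr1a, Bambi and Id1, and lowest in old PBS, as were Bambi and Nbl1. Not every oviduct gene followed its sum, of which Ovgp1 gave 567 and 215 TPM in the old MIT-001 pair. Ovgp1, Pax8 and Epcam were higher in both of that pair than in any other library. Foxj1 split the pair, with 0.867 TPM, its lowest value anywhere, against 67.0 TPM. Wfdc2 was higher in the second young PBS library (40.2 TPM) than in the second of old MIT-001 (19.1 TPM). For 6 macrophage genes the sum was 352 and 329 TPM in old MIT-001, 127 and 146 TPM in old PBS, and 789.6 and 785 TPM in young PBS libraries. For 5 fat cell genes it was 66.6 and 88.5 TPM in old MIT-001, 25.1 and 40.6 TPM in old PBS, and 226 and 52.9 TPM in young PBS libraries. Replicate 1 labelled young PBS thus had the highest fat cell sum, though Plin1 of that list was highest in old PBS. Of the 11 marker lists, Lep of the fat cell list was the only gene listed at 0, in replicate 1 labelled old PBS.

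**Figure D5:**
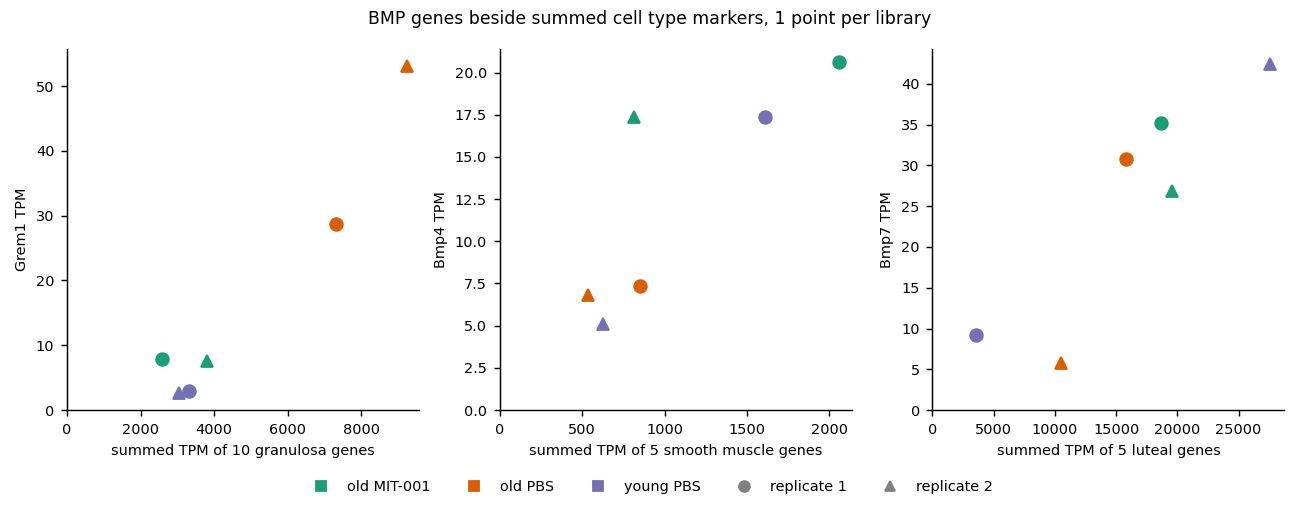
TPM of Grem1, Bmp4 and Bmp7 (vertical axes) against the summed TPM of 10 granulosa, 5 smooth muscle and 5 luteal genes (horizontal axes), with 1 point per library, colour for the label and shape for the replicate; the pairs were chosen after their values were seen. The old PBS libraries, at granulosa sums of 7302 and 9229 TPM, held the most Grem1, and the other 4 libraries had granulosa sums up to 3797 TPM and Grem1 up to 7.91 TPM.

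The genes whose pattern over the 6 libraries was most like that of each member were ranked by Pearson correlation of log2(TPM + 1), among 11077 named genes with a mean of at least 5 TPM (11078 for Nog). With 6 libraries in 3 groups and many genes compared, high values arise readily, and they are given as a description. Ippk (r = 0.997), Dock9 (0.993) and Lrrc28 (0.992) were nearest to Grem1, and Tceal3 (0.987), Ifrd1 (0.986) and Clec2l (0.985) to Bmp4. Btbd3 (0.997), Nsd2 (0.997) and Vps36 (0.997) were nearest to Bmpr1b, and Ercc6l2 (0.998), Fam172a (0.996) and Pik3c2a (0.995) to Bmpr1a. Lrrc40 (0.998), Lin54 (0.997) and Atl2 (0.997) were nearest to Bmpr2, Fam220a (0.998), Ube2j2 (0.997) and Nup88 (0.995) to Bmp2, and Plekhg5 (0.992), Fbxo6 (0.989) and Xkr8 (0.985) to Bmp7. Rnf139 (0.994), Pacsin2 (0.993) and Cbfa2t2 (0.992) were nearest to Bmp6, and Endod1 (0.980), Sec22b (0.978) and Bcdin3d (0.968) to Nog. Ippk itself spanned only 9.93 to 20.7 TPM where Grem1 spanned 2.61 to 53.1 TPM, so likeness is in shape and not in size.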

How the data were processed

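Messenger RNA from mouse ovary was measured in 6 libraries, 2 for each of 3 groups taken from the labels. TRIzol was used for extraction and a SMARTer kit for the libraries, per the labels' protocols. The tools Trimmomatic, HISAT2 and StringTie and the build mm10 are named in the submitters' processing notes; their versions, the annotation and the strand setting were not given in the sources used here. The deposited TPM sum to a constant per library, and the deposited coverage signal is mean read depth over a gene, per the file headers. The deposited FPKM differ from TPM by a constant per library. That constant was 1.89 in replicate 1 labelled young PBS and 2.26 to 2.31 in the others, so scaling by TPM or FPKM differs mainly for that library. Symbols came from RefSeq by Gene ID; 98 rows per library did not match and were left out.

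Genes with at least 1 TPM in at least 2 libraries were fitted as log2(TPM + 1) in all 6 libraries, with 1 mean per group and an intensity trend, in limma 3.58.1 (R 4.3.3). The spread had 3 residual degrees of freedom and 3.12 from the prior. All tests are two-sided, fold changes understate those of low genes, and values of TPM are means ± SD. All members were named, with up to 3 genes of each pathway list by smallest p among those with a mean of at least 5 TPM in a group, the 3 genes most like each member, and Gdf9, Amh and Pdgfra as checks; Foxl2, the other marker genes, and the further pathway genes given as values or as passing under another setting, were chosen after their values were seen, and Cyp17a1 (81.9 and 336 TPM in old MIT-001, 490 and 673 TPM in old PBS, 38.4 and 165 TPM in young PBS) completes the checks. A gene of the antagonist list that the rule named is not reported here. Members and lists were chosen with earlier results of these data known. The alternatives tried were FPKM, a pseudocount of 0.1, a filter at 5 TPM or none, median centring, quantile normalization, only the libraries compared, no trend, a replicate block, each library left out, Grem1 alone in the ratio to ligands, and, added after the data were seen, gene coverage. In the fits, coverage was divided by the most common ratio of coverage to FPKM in its library.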

Additional observations from a re-analysis of the deposited data

How the results depend on the processing

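Of 426 values of members under alternatives, 411 kept their direction and their side of the threshold, 4 came to pass it and 11 changed sign. After median centring Nog was at -0.25, and after quantile normalization Nog was at -0.19 and Bmp2 at -0.024 (old MIT-001 over young PBS). With a library left out, the log2 fold change for old PBS over young PBS ran from -1.18 to 0.41 for Bmp4 (above 0 without replicate 1 labelled young PBS) and from -1.62 to 0.60 for Bmp7 (0.60 without replicate 2 labelled old PBS, 0.54 without that labelled young PBS). For old MIT-001 over old PBS it ran from -0.73 to 0.044 for Nog, -0.22 to 0.0027 for Bmp6 and -0.98 to 0.11 for Bmpr2, above 0 without replicate 2 labelled old PBS. For old MIT-001 over young PBS it ran from -0.19 to 0.51 for Nog (below 0 without replicate 2 labelled young PBS) and from -0.45 to 1.65 for Bmp7 (below 0 in absence of replicate 1). Over single libraries left out, the difference in Bmpr1b share ran from -3.41 to 10.2 percentage points in that comparison and kept its sign in the others. The cause was not tested.

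For old PBS over young PBS the count of 6 genes was 11 with FPKM, 15 after median centring, 17 after quantile normalization, 1 with no filter, with no trend, with the replicate block or with coverage, 0 when only the 4 libraries compared were fitted, and 0 to 948 with a library left out. There 0 to 2 members (Grem1 and Bmpr1b) and 0 to 7 pathway genes (among them Fst, Bmp15, Gdf9, Crim1 and Smad1 higher, Fstl3 lower) passed, in each case only without replicate 1 labelled young PBS. For old MIT-001 over old PBS the count of 3 was 1 with FPKM, median centring or coverage, 0 with no filter or the replicate block, and 0 to 372 with a library left out, with 0 to 1 members (Grem1) and 0 to 3 pathway genes. When only the 4 libraries compared were fitted it was 356, with 1 member (Grem1) and 3 pathway genes (Bmp15, Gdf9 and Fst, lower). Those 3 also passed without either library labelled young PBS, and Grem1 without replicate 1 only. For old MIT-001 over young PBS the counts stayed at 0 under every alternative run.

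The labels number the libraries 1 and 2 in each group and do not say that a number pairs animals. Differences between replicates 1 and 2 correlated across genes at 0.18, 0.24 and 0.01 between pairs of groups, so the replicate block (Grem1, old PBS over young PBS, adjusted p = 0.106, limma) is only an alternative; 0 members passed under it, as without it. Where a library was left out, the remaining library of its group was assumed to vary like the others. Without read counts, precision is known only from the spread of 2 libraries a group.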

Other observations

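Further pathway genes, chosen after their values were seen, stood apart in single groups or libraries. Gdf6, a BMP-related ligand, stood at 2.65 and 2.69 TPM in libraries labelled old MIT-001, 0.60 and 0.60 TPM in those labelled old PBS, and 0.36 and 1.61 TPM in those labelled young PBS. Chrdl2, a chordin-like antagonist, was highest in the second library of old MIT-001, with 7.07 TPM, against 0.13 to 0.71 TPM in the other 5. Id4, an inhibitor of DNA binding, stood at 9.59 and 6.90 TPM in old MIT-001, 2.54 and 2.50 TPM in old PBS, and 4.13 and 1.52 TPM in young PBS libraries (log2 fold change 1.38 ± 0.42 for old MIT-001 over old PBS, adjusted p = 0.29, limma). Fst, which encodes the activin antagonist follistatin, stood at 70.7 and 56.8 TPM in old MIT-001, 223 and 251 TPM in old PBS, and 127 and 14.4 TPM in young PBS libraries.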
